A study of Mus musculus with 3 samples.

Results

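NR2F2, or COUP-TFII, belongs to the nuclear receptors and is made by interstitial cells of the fetal testis. Its binding was described here at 10 genes of the Notch pathway, namely the receptors Notch1, Notch2 and Notch3, the ligands Jag1, Jag2 and Dll1, the DNA-binding effector Rbpj and the target repressors Hes1, Hey1 and Heyl. A peak was taken as a member when the nearest transcription start site (TSS) belonged to 1 of these genes, or when the peak lay within 50 kb of such a TSS. This rule used positions and no counts, and it gave 12 of 10069 peaks, at 7 of the 10 genes. At each peak, in mm10 coordinates, reads were counted in 1 input library (sheared chromatin without immunoprecipitation) and in each of 2 ChIP libraries.

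Chromatin came from whole testes of CD-1 mouse embryos, an outbred stock, at E14.5, with the mesonephros removed. The labels and methods name no transgene, allele or treatment for these animals, and all 3 libraries were from testis of this stage. Each ChIP replicate was a separate experiment on 18 µg of chromatin from 30 pooled testes with 5 µl of antibody to COUP-TFII, and the label of the input carries no replicate number. Over the 10069 peaks, which are 300 bp each, the input held 73251 counts, ChIP replicate 1 held 426784 and ChIP replicate 2 held 364261. Since a whole testis was used, a lower count cannot tell fewer cells with bound NR2F2 from less binding per cell.

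Notch signalling acts between touching cells. A Jagged or Delta-like ligand on 1 cell binds a Notch receptor on its neighbour, the receptor is cleaved, and its freed intracellular domain enters the nucleus. There it joins RBPJ on DNA and switches on genes of the Hes and Hey families, which encode repressors of transcription. In the fetal testis, Notch signalling is known for holding interstitial progenitors of Leydig cells back from differentiation. In venous endothelium, NR2F2 is known for restraining the same pathway.

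Sequences under the 3 peaks with the most ChIP reads, those of Heyl and Rbpj, are shown first, since the binding described here was called on them. Each held at least 1 NR2F2 half-site, AGGTCA or GGGTCA, searched on both strands. All are given 5′ to 3′ on the plus strand of mm10. Capitals mark half-sites and, where present, the longer motif AGAGGTCA or AGGGGTCA that contains one.
Heyl peak 1 (mm10, chr4:123228302-123228601, plus strand): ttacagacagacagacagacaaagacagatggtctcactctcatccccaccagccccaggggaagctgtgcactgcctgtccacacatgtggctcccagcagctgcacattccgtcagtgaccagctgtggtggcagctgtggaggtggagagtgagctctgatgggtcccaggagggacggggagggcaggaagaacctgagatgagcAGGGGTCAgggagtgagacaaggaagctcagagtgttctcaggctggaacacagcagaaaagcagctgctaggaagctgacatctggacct
Heyl peak 2 (mm10, chr4:123239809-123240108, plus strand): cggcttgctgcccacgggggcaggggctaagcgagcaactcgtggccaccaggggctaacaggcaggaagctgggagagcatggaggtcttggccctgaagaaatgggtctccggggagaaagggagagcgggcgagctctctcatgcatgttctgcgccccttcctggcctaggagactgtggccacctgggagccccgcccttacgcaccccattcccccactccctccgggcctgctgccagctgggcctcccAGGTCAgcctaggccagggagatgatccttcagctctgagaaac
Rbpj peak (mm10, chr5:53589922-53590221, plus strand): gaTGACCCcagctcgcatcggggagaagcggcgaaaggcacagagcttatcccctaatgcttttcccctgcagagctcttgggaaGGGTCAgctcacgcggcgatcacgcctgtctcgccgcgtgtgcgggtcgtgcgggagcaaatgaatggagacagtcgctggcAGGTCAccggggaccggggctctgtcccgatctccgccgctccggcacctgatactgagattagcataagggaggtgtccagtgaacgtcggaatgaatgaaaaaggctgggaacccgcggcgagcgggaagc
Heyl peak 1 held AGGGGTCA at bases 210 to 217 of 300, and Heyl peak 2 held AGGTCA at bases 257 to 262. The Rbpj peak held 3 half-sites, at bases 3 to 8 on the minus strand and at 86 to 91 and 168 to 173 on the plus strand.

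Peaks far from promoters are shown as windows around their motifs, because the longer motif was found mainly among them. The windows of Jag1 peak 2, the Hes1 peak and Notch2 peak 1 run 30 bases past the longer motif on both sides, and that of Jag1 peak 1 runs 50 bases past a pair of half-sites.
Jag1 peak 1 (mm10, chr2:137393654-137393766, plus strand): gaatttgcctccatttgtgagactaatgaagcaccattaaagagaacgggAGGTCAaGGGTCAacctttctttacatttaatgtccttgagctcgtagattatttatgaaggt
Jag1 peak 2 (mm10, chr2:137422778-137422845, plus strand): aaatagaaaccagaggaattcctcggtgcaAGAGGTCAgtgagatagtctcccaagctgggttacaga
Hes1 peak (mm10, chr16:30089177-30089244, plus strand): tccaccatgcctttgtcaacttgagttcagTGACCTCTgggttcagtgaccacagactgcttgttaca
Notch2 peak 1 (mm10, chr3:97965171-97965238, plus strand): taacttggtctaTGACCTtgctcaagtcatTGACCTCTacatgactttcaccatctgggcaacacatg
The Hes1 and Notch2 windows carry AGAGGTCA on the minus strand, so that it reads as TGACCTCT here. In Jag1 peak 1 the half-sites AGGTCA and GGGTCA followed each other on the same strand with 1 base between them, at bases 199 to 204 and 206 to 211. Pairs of half-sites in the same orientation with 1 base between were in 239 of 10064 peaks on assembled chromosomes (2.37%), and in 1 of the 12 member peaks.

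All 12 member peaks had more reads in each ChIP replicate than in the input, as did 99.9% of all peaks. The summed ChIP counts ran from 40 at Jag1 peak 2 to 169 at Heyl peak 1, with a median of 62.5, against 68.0 over all peaks. Of the 1005 ChIP reads in the member peaks, 597 (59.4%) lay in the 6 peaks of the target repressors and 144 (14.3%) in the 2 peaks of Notch2. The 3 peaks of the ligands held 142 (14.1%) and the peak of Rbpj 122 (12.1%). These shares include peaks that lay nearer to the TSS of another gene. They were Heyl peak 3 (47 reads, at Pabpc4), the Dll1 peak (44, at Fam120b) and Notch2 peak 1 (86, at Gm5544). Heyl peaks 1 and 2 had the highest sums and the Rbpj peak the next, with 122 reads, while the Hes1 peak, Hey1 peak 2 and Heyl peak 3 lay below the median of all peaks. Of the 12 peaks, 4 ranked in the top quartile of all peaks by summed ChIP count and 5 above the median.

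**Figure D1:**
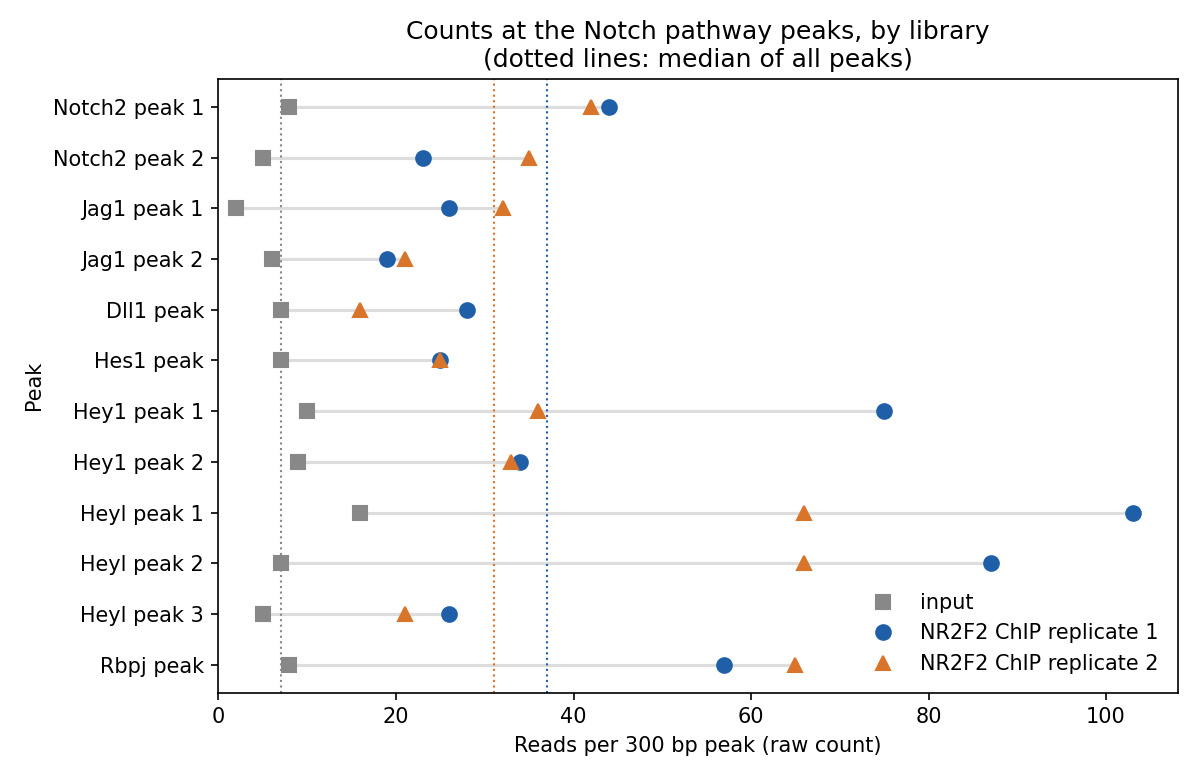
Read counts (x axis, reads per 300 bp peak) in the input and in both ChIP replicates at the 12 Notch pathway peaks (y axis, grouped by role), with 1 point per library. At every peak both ChIP points lie to the right of the input point, and the highest are Heyl peak 1 with 103 and 66 reads and Heyl peak 2 with 87 and 66.

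A first test asked whether ChIP exceeded input. It used the quasi-likelihood test of edgeR over all 10069 peaks, with the ChIP replicates scaled to each other by their totals at peaks and the input taken as equally deep. All 12 members passed at an adjusted p under 0.05, but so did 97.8% of all peaks, because peaks were called on these ChIP reads. With DESeq2, 7 of the 12 passed, beside 61.9% of all peaks, and 7 also passed with ChIP libraries assumed to be 2 times as deep as the input, beside 56.2%. In both settings the Hes1 peak, the Dll1 peak, Jag1 peak 2, Hey1 peak 2 and Heyl peak 3 did not pass. A second test asked whether a peak lay above or below the ChIP to input ratio of the typical peak, which does not need the depth of the libraries. By this test 0 of 12 members were above, against 1.53% of all peaks, and 0 of 12 were below, against 0.0497%. At an unadjusted edgeR p under 0.05, 1 of 12 members differed from the typical peak, against 10.4% of all peaks. The input, with 2 to 16 counts at the members, limits how small a difference could be detected there.

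Notch2 was the only receptor gene of the set with a member peak (chromosome 3, 98013538 to 98150367, plus strand). NOTCH2 is a transmembrane receptor whose intracellular domain acts with RBPJ. Notch2 peak 2 (98013140 to 98013439) lay outside any gene, 99 bp upstream of the TSS. It had 5 input counts, 23 in ChIP replicate 1 and 35 in replicate 2. Both ChIP counts were above the input, with replicate 2 the higher. The log2 ChIP to input ratio was 2.51 ± 0.57 (SE, edgeR adjusted p = 2.09e-05), and the log2 ratio to the typical peak was 0.23 ± 0.68 (adjusted p = 0.963). The second value was -0.22 without ChIP replicate 2. No half-site was found in its 300 bases.

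Notch2 peak 1 (97964977 to 97965276) lay 48262 bp upstream of the Notch2 TSS, in an intron of the predicted gene Gm5544, whose TSS was nearer at 34804 bp. Its counts were 8 in the input, 44 in replicate 1 and 42 in replicate 2. The ChIP replicates were alike and both exceeded the input, with a log2 ratio of 2.41 ± 0.47 (SE, edgeR adjusted p = 9.09e-07). Relative to the typical peak the log2 ratio was 0.11 ± 0.55 (adjusted p = 0.981). This peak held the longer motif and 3 half-sites, all on the minus strand, and had a GC content of 50.3%, against 60.7% at the promoter peak.

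Notch1 and Notch3, which encode receptors of the same family, had no member peak. The peak closest to the Notch1 TSS was 94594 bp away, at Inpp5e, and had 3, 37 and 38 counts in the input and in ChIP replicates 1 and 2. At this depth, and with peaks as the only intervals counted, binding below the threshold of the peak caller was not measured at either gene.

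Among the ligands, Jag1 had only distant peaks. JAG1 is a transmembrane ligand of the Jagged type, and its gene (chromosome 2, 137081451 to 137116520, minus strand) was the nearest gene to 2 peaks outside any gene. Jag1 peak 1 (137393506 to 137393805) lay 276986 bp upstream of the TSS, with 2 input counts, 26 in ChIP replicate 1 and 32 in replicate 2. Both ChIP counts were well above the input, which ranked at percentile 1.85 of all input counts. The raw ratio was 13.0 (exact counting interval 3.25 to 113.0) in replicate 1 and 16.0 (4.08 to 138.0) in replicate 2. On the log2 scale the ratio to the typical peak was 1.53 ± 0.89 (SE, edgeR adjusted p = 0.584), the highest value among the members and the least precise. Its GC content, 36.0%, was the lowest of the members.

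Jag1 peak 2 (137422726 to 137423025) lay 306206 bp upstream of the TSS, with 28920 bp between the edges of both peaks. It had 6 input counts, 19 in ChIP replicate 1 and 21 in replicate 2, the lowest ChIP sum of the members. Both ChIP counts exceeded the input, with a log2 ratio of 1.72 ± 0.61 (SE, edgeR adjusted p = 0.00545), and the log2 ratio to the typical peak was -0.57 ± 0.70 (adjusted p = 0.892). The longer motif AGAGGTCA was at its bases 83 to 90. A peak nearer to the Jag1 TSS, at 225307 bp, was not a member because its nearest gene was Slx4ip. That peak had 8, 100 and 65 counts in the input and in ChIP replicates 1 and 2.

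The peak of Dll1 was at the promoter of another gene. DLL1 is a ligand of the Delta-like type (gene on chromosome 17, 15367354 to 15376932, minus strand). The peak (15396262 to 15396561) was 19330 bp upstream of the nearer Dll1 TSS and 16 bp from the TSS of Fam120b, in its 5′ untranslated region. Counts were 7 in the input, 28 in ChIP replicate 1 and 16 in replicate 2. Replicate 1 was the higher, and the raw ratio of replicate 2 to input, 2.29, had an exact counting interval of 0.89 to 6.57 that includes equal counts. With both replicates the log2 ratio to input was 1.62 ± 0.57 (SE, edgeR adjusted p = 0.00492), the lowest of the 12. Relative to the typical peak it was -0.67 ± 0.65 (adjusted p = 0.837). With all 3 libraries taken as equally deep, 10 of 12 members passed the edgeR test against input, beside 80.7% of all peaks, and this peak did not (adjusted p = 0.0971). Jag2, which encodes the other Jagged ligand, had no member peak, and the peak closest to its TSS was 207391 bp away, at Cep170b, with 7, 34 and 34 counts.

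**Figure D2:**
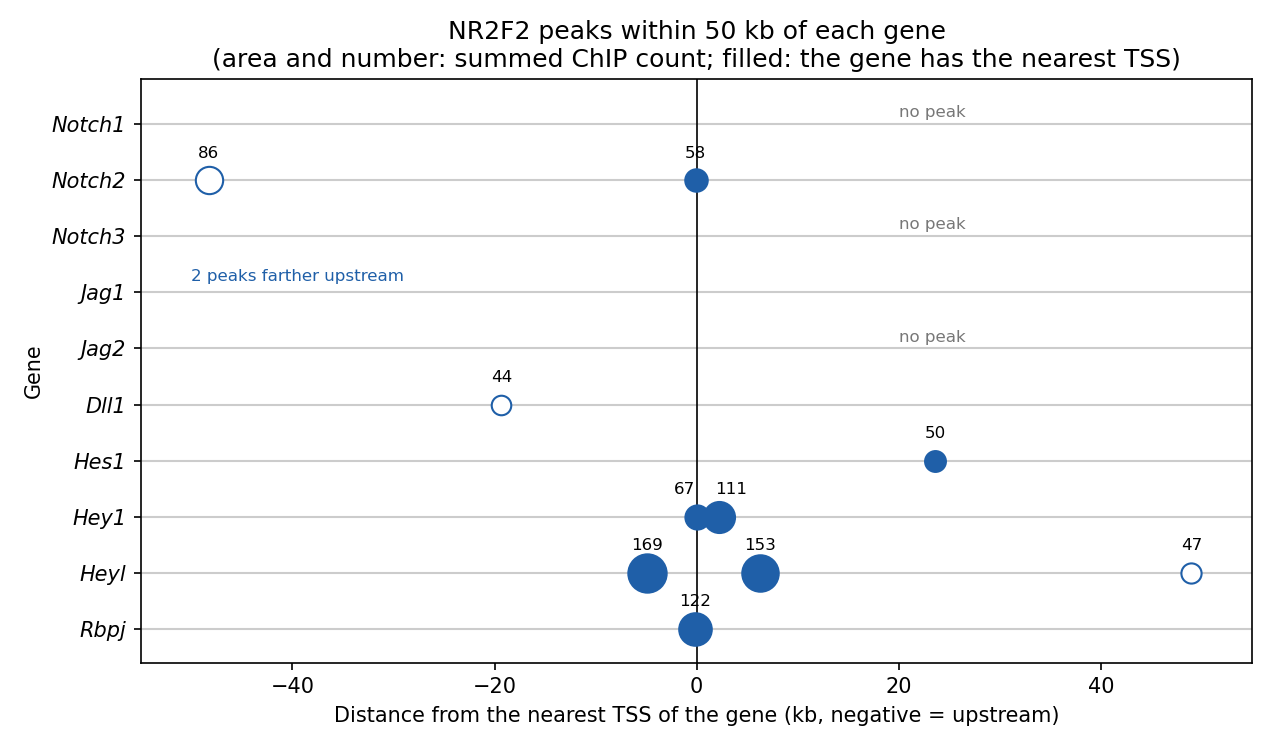
Position of the member peaks relative to the nearest TSS of each gene (x axis, kb, negative upstream), with 1 row per gene on the y axis and the area of a point and its number giving the summed ChIP count. Heyl peaks flank the TSS with 169 and 153 reads, while open points mark the Notch2, Dll1 and Heyl peaks that lie nearer to the TSS of another gene, and the 2 Jag1 peaks lie farther upstream than the axis reaches.

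Rbpj had 1 peak, at a promoter. RBPJ is the DNA-binding protein through which all Notch receptors act, a repressor without the Notch intracellular domain and an activator with it. The peak (chromosome 5, 53589922 to 53590221, plus-strand gene) lay 125 bp upstream of the nearest of 3 TSSs of the gene and in an intron of a longer transcript. It had 8 input counts, 57 in ChIP replicate 1 and 65 in replicate 2. The ChIP counts were far above the input in both replicates, with a mean of 61.0 ± 5.66 (SD, n = 2) at percentile 87.7 of all peaks by summed ChIP count. The log2 ratio to input was 2.91 ± 0.43 (SE, edgeR adjusted p = 1.89e-10) and the log2 ratio to the typical peak was 0.62 ± 0.52 (adjusted p = 0.792).

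In the Rbpj sequence above, the core of the motif that RBPJ itself binds, TGGGAA, occupied bases 80 to 85 and ran directly into the half-site GGGTCA at bases 86 to 91. The arrangement was noticed when the sequence was read and was then searched in all peaks. TGGGAA directly followed by a half-site on the same strand was found in 7 of 10064 peaks (0.0696%), and in 1 member. Since the arrangement was taken from this member, its presence there was given in advance. No other order or spacing was searched, so the low share is a description only. RefSeq promoter sequences (GRCm38, 250 bp before to 50 bp after a TSS) were at hand for 7 of the 10 genes, in 9 windows. The longer motif was in 2 of these windows, both of Rbpj and both at the same site (53590321 to 53590328), 100 bp beyond the edge of the peak, beside 2.63% of 32851 promoter windows of all genes.

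Hes1 had 1 peak, downstream of the gene. HES1 is a basic helix-loop-helix repressor and a direct target of Notch in many tissues (gene on chromosome 16, 30065357 to 30067796, plus strand). The peak (30088952 to 30089251) lay outside any gene, 23595 bp downstream of the TSS, with 7 input counts and 25 in both ChIP replicates. The ChIP replicates did not differ and were above the input, with a log2 ratio of 1.82 ± 0.55 (SE, edgeR adjusted p = 0.00118). The log2 ratio to the typical peak was -0.48 ± 0.63 (adjusted p = 0.898). No peak lay nearer to the Hes1 promoter.

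Hey1 carried 2 peaks within its own transcript, with 1874 bp between them. HEY1 is a repressor of the Hairy/E(spl)-related family induced by Notch, and the gene is short (chromosome 3, 8663359 to 8667038, minus strand). Hey1 peak 2 (8666749 to 8667048) overlapped the TSS and the 5′ untranslated region. It had 9 input counts, 34 in ChIP replicate 1 and 33 in replicate 2. The ChIP replicates were nearly equal and exceeded the input, with a log2 ratio of 1.88 ± 0.47 (SE, edgeR adjusted p = 0.00012). Against the typical peak the log2 ratio was -0.42 ± 0.55 (adjusted p = 0.898). No half-site was found in it, but TGGGAA occurred at 2 positions, near the end of the peak that lies upstream.

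Hey1 peak 1 lay in a coding exon, 2164 bp downstream of the TSS. Its counts were 10 in the input, 75 in ChIP replicate 1 and 36 in replicate 2. Both exceeded the input, and replicate 1 held 67.6% of the ChIP reads, against 54.0% over all peaks. This gap had the smallest p among the members (exact two-sided binomial p = 0.00414, adjusted p = 0.281). The log2 ratio to input was 2.44 ± 0.42 (SE, edgeR adjusted p = 3.92e-08) and the log2 ratio to the typical peak was 0.14 ± 0.50 (adjusted p = 0.968). Without ChIP replicate 1 the second value was -0.34, and with all 3 libraries taken as equally deep the adjusted p of the first was 0.0767.

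Heyl had the most peaks and the most ChIP reads of the 10 genes under the member rule, with 3 peaks and 369 reads. By nearest TSS alone it had 2 peaks, as many as Hey1 and Jag1. HEYL is another Hey family repressor downstream of Notch (gene on chromosome 4, 123233556 to 123249870, plus strand). Heyl peak 1 (123228302 to 123228601) lay outside any gene, 4955 bp upstream of the TSS. It had 16 input counts, 103 in ChIP replicate 1 and 66 in replicate 2. Its summed ChIP count was at percentile 96.0 of all peaks, and its input count was likewise high, at percentile 98.2. The log2 ratio to input was 2.38 ± 0.34 (SE, edgeR adjusted p = 3.14e-11), while the log2 ratio to the typical peak was only 0.08 ± 0.39 (adjusted p = 0.981), and -0.15 without ChIP replicate 1. The high ChIP count thus came with a high input count.

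Heyl peak 2 (123239809 to 123240108), in an intron 6253 bp downstream of the TSS, had a lower input. Counts were 7 in the input, 87 in ChIP replicate 1 and 66 in replicate 2. Both replicates were far above the input, with ratios of 11.7 and 8.87 after adding 0.5 to each count, and the mean ratio ranked at percentile 90.8 of all peaks. The log2 ratio to input was 3.42 ± 0.42 (SE, edgeR adjusted p = 1.87e-14). Set against the typical peak, its log2 ratio of 1.13 ± 0.52 (SE) had an edgeR adjusted p of 0.385. This was the only member with an unadjusted edgeR p under 0.05.

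Heyl peak 3 (123282499 to 123282798) was a member by distance alone, 48943 bp downstream of the Heyl TSS. It lay outside any gene, 113 bp from the TSS of Pabpc4, which encodes a poly(A)-binding protein. The counts were 5 in the input, 26 in ChIP replicate 1 and 21 in replicate 2. Both ChIP counts exceeded the input, with a log2 ratio of 2.20 ± 0.61 (SE, edgeR adjusted p = 0.000407), and the log2 ratio to the typical peak was -0.09 ± 0.71 (adjusted p = 0.991).

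**Figure D3:**
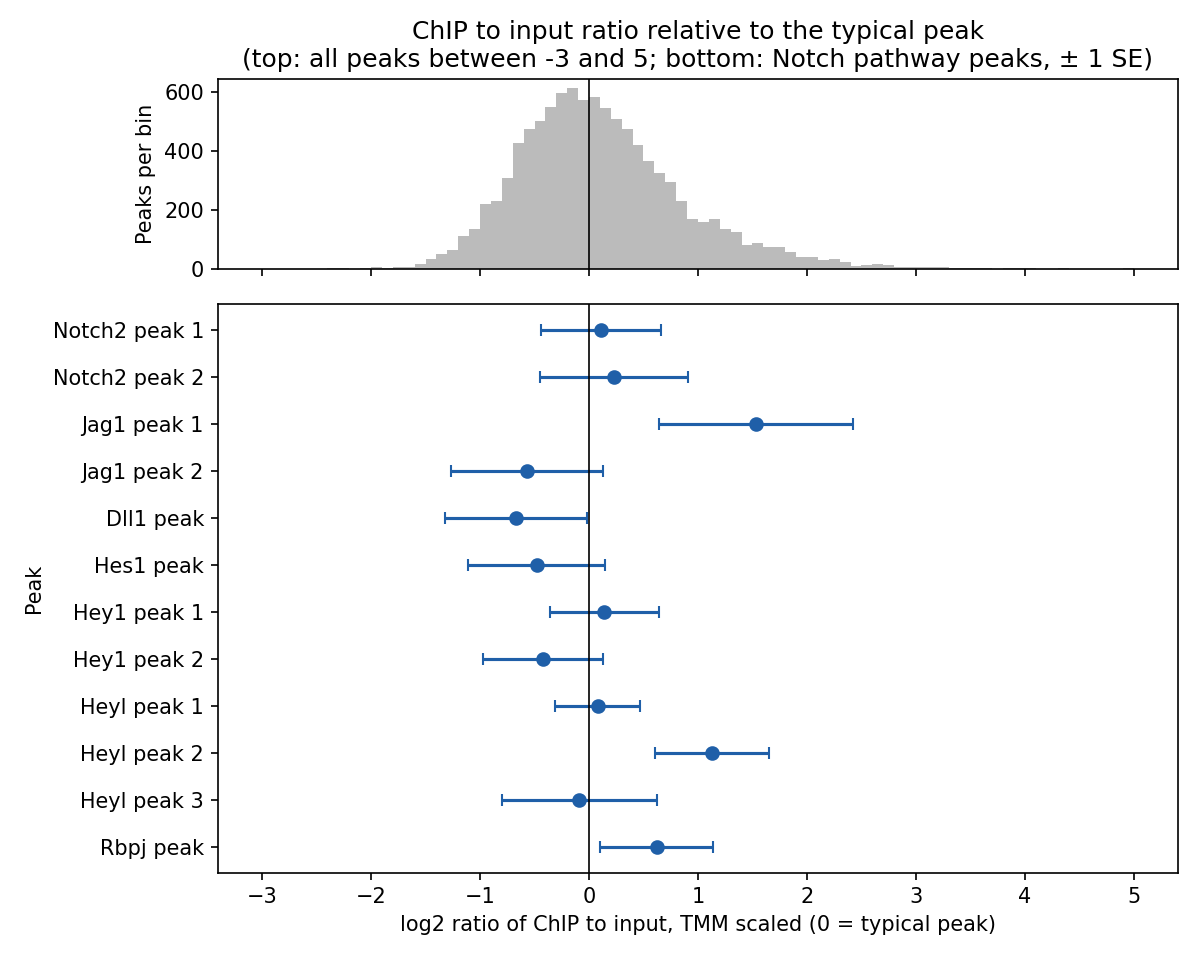
Log2 ChIP to input ratio relative to the typical peak (x axis, edgeR estimate with TMM scaling) for all peaks as a histogram (top, y axis in peaks per bin) and at the 12 member peaks (bottom, 1 row each), with bars of 1 standard error and a line at 0 for the typical peak. The members' values run from -0.67 at the Dll1 peak to 1.53 at Jag1 peak 1, and none had an adjusted p under 0.05.

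As a group, the members had ChIP to input ratios close to those of other peaks. After 0.5 was added to each count, the median ratio over the 12 members was 5.03 for ChIP replicate 1 and 3.97 for replicate 2. Their mean was 4.5 ± 0.747 (SD, n = 2). Over all peaks the medians were 5.11 and 4.39, with a mean of 4.75 ± 0.505. The median log2 ratio to the typical peak was 0.09 over the members and 0.02 over all peaks, and 7 of 12 members had a value above 0, beside 51.2% of all peaks. Without TMM scaling 5 of 12 members were above 0.

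The ChIP replicates were next compared within the members. Replicate 1 was the higher at 7 peaks, replicate 2 at the other ones except the Hes1 peak, where they were equal. An exact two-sided binomial test, given the totals at peaks, found 0 of 12 members with an adjusted p under 0.05, against 0.0993% of all peaks. Without adjustment 2 of 12 members had a p under 0.05, against 8.83% of all peaks. These were Hey1 peak 1, higher in replicate 1, and Notch2 peak 2, higher in replicate 2 (exact p = 0.0345, adjusted p = 0.524). The test compares 2 libraries and covers counting error only.

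**Figure D4:**
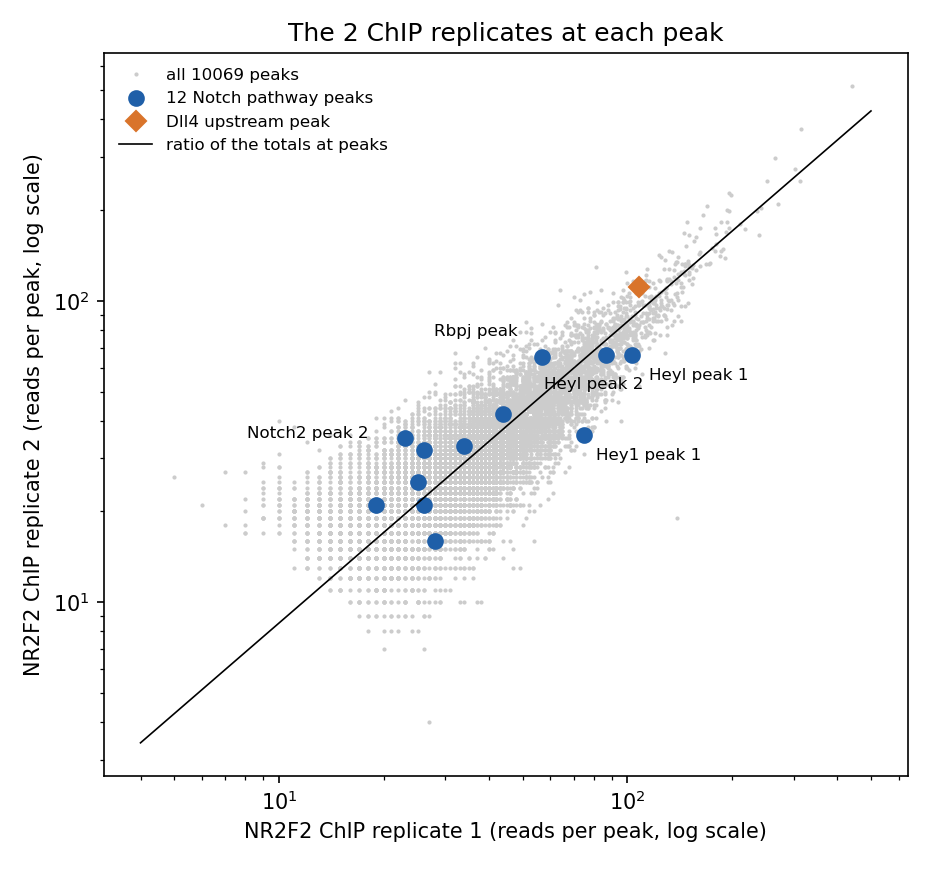
Counts in ChIP replicate 1 (x axis, log scale) and ChIP replicate 2 (y axis, log scale) at all 10069 peaks (grey), the 12 members (blue) and the peak upstream of Dll4 (orange), with a line at the ratio of the totals at peaks. Hey1 peak 1 (75 and 36 reads) lies below the line and Notch2 peak 2 (23 and 35 reads) above it, both within the cloud of other peaks.

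The members lay both at promoters and far from them. Of the 12 peaks, 5 lay within 1 kb of the TSS of any gene (41.7%, against 58.0% of all peaks), and 3 of these were within 1 kb of a member TSS, those of Notch2, Hey1 and Rbpj. The other ones were at Fam120b and Pabpc4. Another 4 peaks lay over 10 kb from any TSS (33.3%, against 32.9%), and 6 of the 12 lay outside any gene. GC content ran from 36.0% to 66.3%, with a median of 61.3%, against 60.7% over all peaks.

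The longer NR2F2 motif was in 4 of 12 members (33.3%), against 10.5% of 10064 peaks. These were Heyl peak 1, Jag1 peak 2, the Hes1 peak and Notch2 peak 1. Of the 4 members over 10 kb from any TSS, 3 held it, against 16.6% of all peaks at that distance, while 0 of the 5 within 1 kb of a TSS did, against 6.18%. A half-site was in 9 of 12 members (75.0%), against 58.9% of all peaks, and each longer motif is also counted as a half-site. The peaks without one were those at the Notch2, Hey1 and Dll1 (Fam120b) sites nearest to a TSS. The core TGGGAA was in 4 of 12 members (33.3%), against 24.6%, namely the Hes1 peak, Hey1 peak 2, Jag1 peak 1 and the Rbpj peak. With 12 peaks, and members that share a gene, these shares are descriptions with no test, and a match of letters is not a bound site.

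Having a peak was itself common. Under the same rule 56.6% of 26180 genes with curated transcripts had a peak, against 7 of the 10 members. A peak whose nearest TSS was the gene's own was found at 6 of 10 members and 30.8% of genes. A peak within 1 kb was found at 3 of 10 members and 24.8% of genes.

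Other genes of the pathway were taken as a list of 54, from the remaining receptor and ligands through the glycosyltransferases, secretase subunits and endocytic regulators to coactivators, corepressors and further targets. Under the same rule 49 of them had at least 1 peak, beside 56.6% of all genes. These were 104 peaks in all, and none of them was a member. The genes without a peak were Aph1b, Maml2, Cir1, Hes5 and Hes7. By nearest TSS alone, 36 of the 54 genes had a peak, beside 30.8% of all genes, and 52 of the 104 peaks were nearest to a gene of the list. ChIP exceeded input at 103 of the 104 peaks, beside the 97.8% of all peaks given above, and 3 lay above the typical peak (2.88%, beside 1.53% of all peaks) and 0 below (beside 0.0497%) by the edgeR adjusted p. The median log2 ratio to the typical peak was -0.02. The 3 peaks above were near Dll4, Notch4 and Numbl, and only the first was nearest to the gene of the list.

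Dll4 encodes a Delta-like ligand of endothelium. Of 3 peaks within 50 kb, the only one nearest to Dll4 (chromosome 2, 119319519 to 119319818) lay outside any gene, 5966 bp upstream of the TSS, with 2 input counts, 108 in ChIP replicate 1 and 111 in replicate 2. Both ChIP counts were far above the input and at percentile 98.6 of all peaks by their sum. The raw ratio was 54.0 (exact counting interval 14.6 to 452.0) in replicate 1 and 55.5 (15.0 to 464.0) in replicate 2. The log2 ratio to the typical peak was 3.44 ± 0.65 (SE, edgeR adjusted p = 4.92e-05), and it was 0.49 ± 0.73 and -0.47 ± 0.53 at the other Dll4 peaks, which lay nearest to Vps18 and Gm14207. Its sequence is shown because it differed most from the members in its motifs, with 4 half-sites on the plus strand, 1 of them within AGGGGTCA.
Dll4 peak (mm10, chr2:119319519-119319818, plus strand): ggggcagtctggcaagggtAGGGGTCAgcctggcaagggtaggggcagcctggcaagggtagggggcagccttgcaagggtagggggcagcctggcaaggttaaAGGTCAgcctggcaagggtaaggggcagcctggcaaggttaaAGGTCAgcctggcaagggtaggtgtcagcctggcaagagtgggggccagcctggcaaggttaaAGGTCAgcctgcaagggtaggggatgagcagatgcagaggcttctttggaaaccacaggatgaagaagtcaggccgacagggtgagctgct
The half-sites lay within a short tandem repeat. The word agcctggcaa occurred 8 times, with starts 20 to 42 bases apart, and 249 of 10064 peaks had a word of 10 bases in as many copies. The highest number of copies of any such word in a member peak was 4. The part of the repeat in these counts was not tested.

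The other peaks above the typical peak lay at promoters of neighbouring genes. Notch4 encodes the remaining Notch receptor, and a peak (chromosome 17, 34604184 to 34604483) lay 39889 bp from its TSS and 623 bp from that of Rnf5. This peak had 10 input counts, 173 in ChIP replicate 1 and 134 in replicate 2, the highest ChIP sum of the list (log2 ratio to the typical peak 1.62 ± 0.38, SE, edgeR adjusted p = 0.00394). Another peak lay 8439 bp upstream of Notch4, which was its nearest gene, and had 8, 31 and 24 counts and a log2 ratio of -0.54 ± 0.59 (SE). NUMBL, related to the Notch antagonist NUMB, has its gene 29953 bp from a peak at the TSS of Itpkc (chromosome 7, 27228509 to 27228808). That peak had 1 input count, 70 in ChIP replicate 1 and 32 in replicate 2, and raw ratios of 70.0 (exact counting interval 12.2 to 2804) and 32.0 (5.35 to 1303). Its log2 ratio to the typical peak was 3.30 ± 0.96 (SE, edgeR adjusted p = 0.0409), with an adjusted p of 0.0779 without TMM and a value of 2.60 without ChIP replicate 1. With DESeq2 size factors in edgeR the adjusted p was 0.0408 at the Dll4 peak, 0.0942 at the Notch4 peak and 0.4 at the Numbl peak. The DESeq2 test gave 0.078 at the Dll4 peak, 0.163 at the Notch4 peak and no adjusted p at the Numbl peak.

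The other peaks among the 5 with the highest ChIP sums of the list were near Rfng, Tle1 and Dtx4. Rfng, a fringe glycosyltransferase that modifies Notch receptors, was 40490 bp from a peak at Fasn (chromosome 11, 120824694 to 120824993) with 12, 140 and 123 counts. Tle1, a Groucho corepressor used by Hes proteins, had a peak 252 bp from its TSS (chromosome 4, 72200342 to 72200641) with 10, 84 and 109 counts. Dtx4, a Deltex ubiquitin ligase, had a peak 34 bp upstream of its TSS (chromosome 19, 12502030 to 12502329) with 5, 95 and 78 counts. In each of them both ChIP counts exceeded the input, and the edgeR adjusted p relative to the typical peak was 0.109, 0.382 and 0.0626 in that order.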

How the data were processed

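NR2F2 ChIP-seq of whole E14.5 mouse testes was analysed, with 2 ChIP libraries and 1 input library grouped by the sample titles. The authors deposited raw read counts, with no normalisation, for the same 10069 peaks in each library. According to the submitters' processing notes and the study's methods, reads were trimmed with Trim Galore 0.6.7, mapped to mm10 with Bowtie2 and cleared of duplicates with Picard 1.110. Peaks were called with HOMER 4.11.1 on the merged ChIP replicates and resized to 300 bp, so that every peak was selected for ChIP reads. How a read was matched with its peak is not given in the sources that were used. Since duplicates were removed, counts in an interval this short have a ceiling.

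Member peaks were found with curated RefSeq transcripts of GRCm38 (45756 transcripts of 26180 genes), with distances taken from whichever edge of a peak was nearer. Sequence was not searched at 5 peaks on unplaced contigs. Members, the wider gene list and tests were chosen with earlier results of these data known. Every member peak was described, 7 of them with sequence, and the peak closest to Notch3 is not reported here. From the wider list, the 5 peaks with the highest ChIP sum were described, and any peak past the threshold relative to the typical peak.

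Tests used glmQLFit and glmQLFTest of edgeR 4.0.16 (limma 3.58.1, R 4.3.3) over all peaks, with Benjamini-Hochberg adjustment and a threshold of 0.05. In the test against input, the ChIP libraries were sized by their totals at peaks and the input by their geometric mean, since the counts at peaks (73251 to 426784 per library) are not sequencing depths. In the test against the typical peak, TMM factors were used. The spread was estimated from the 2 ChIP libraries over all peaks, and the single input was assumed to vary like them. The standard error of a log2 ratio was computed from the ratio and its F statistic. For ratios of counts, 0.5 was added to both counts, and intervals of raw ratios were exact and cover counting error only. The ChIP experiments were separate and came from pooled testes. In both main fits the prior degrees of freedom were infinite, so each peak got the spread fitted over all peaks and not its own. The p-values thus reflect counting error and this shared spread, and a gap between the replicates at 1 peak did not widen its standard error. With all 3 libraries taken as equally deep, the prior degrees of freedom were 1.54, and the peak's own spread entered.

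On simulated counts for 10069 peaks, the test against input recovered 94.9% of 9869 enriched peaks and called 8 of 200 without enrichment. The test against the typical peak recovered 72 of the 100 that were raised 4-fold and 25 of the 100 that were lowered 4-fold, with 7 false calls, so low ratios were harder to detect than high ones. Alternatives were DESeq2 1.42.0, other scalings, robust fitting, an input minimum of 10, other peak rules and leaving out each ChIP library. The rest was computed with Python 3.11.15 (pandas 2.3.3, numpy 2.4.6, scipy 1.17.1).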

Additional observations from a re-analysis of the deposited data

How the results depend on the processing

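The direction of ChIP above input held at all 12 members under every alternative that tested them, while the number of calls did not. It was 12 in the main analysis, 7 where the ChIP libraries were assumed to be 2 times as deep as the input, 7 with DESeq2, and 2 with an input count of at least 10, where only 2 members were tested. The Hes1 peak, the Dll1 peak, Jag1 peak 2, Hey1 peak 2 and Heyl peak 3 lost their calls both with DESeq2 (adjusted p 0.0586 to 0.143) and with deeper ChIP libraries (0.0915 to 0.328). Over all peaks the calls were 9846, and 6230 with DESeq2, 5662 with deeper ChIP libraries and 2348 (of 2427 tested) with the input minimum. No member was called above or below the typical peak in the settings with a test, of which the input minimum tested 2 members. Over all peaks the calls above and below were 154 and 5, and became 39 and 0 with DESeq2 size factors, 102 and 7 without TMM, 58 and 4 with the input minimum and 22 and 0 with DESeq2, which gave 11 of 12 members no adjusted p. Without TMM the median of all peaks moved to -0.10, and Notch2 peak 1 (-0.0047) and Heyl peak 1 (-0.04) changed sign. Without ChIP replicate 1, Hey1 peak 1 (-0.34) and Heyl peak 1 (-0.15) had values below 0, as did Notch2 peak 2 (-0.22) without replicate 2, with no test.

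The median ratio was 3.25 with 5 added to each count and 5.88 among members with a ChIP sum above the median, and leaving out 1 ChIP library gave 3.97 to 5.03. That stricter limit left 5 peaks at 4 genes. With GENCODE M21 basic transcripts, chosen after seeing the data, 10 peaks at 6 genes remained and both Jag1 peaks fell out, since Gm14055 was nearer (105003 and 134223 bp). The motif count was 4, or 9 for half-sites and 1 for pairs of half-sites. Of the wider list, 103 of 104 peaks exceeded input, or 90 with all libraries equally deep, 75 with DESeq2, 64 with deeper ChIP libraries and 34 of the 35 tested with the input minimum, and the 3 above the typical peak became 1 with DESeq2 size factors and 0 with DESeq2. No paired analysis was possible because the input has no replicate number in the labels. Leaving out a ChIP library leaves 1 against 1, so those values have no test. The single input, with a median of 7 counts per peak, limits every ratio.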
